A study of Mus musculus with 2 samples.

Results

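The 6 genes described here are mt-Co1, mt-Co2, mt-Co3, mt-Atp6, mt-Atp8 and mt-Cytb, the protein-coding genes of mouse mitochondrial DNA that do not belong to respiratory complex I. They were chosen by name, and all 6 were present among the 14366 genes of both deposited tables, beside 7 mitochondrially encoded complex I genes. Cells were hematopoietic stem cells (HSC), sorted by the surface profile Lin- Sca-1+ c-Kit+ CD150+ CD48- out of the pooled marrow of 8 wildtype C57/B6 mice 6 to 8 weeks old. Both cultures contained cytokines, among them SCF at 100 ng/ml. One culture received 10 µM deferoxamine (DFO), an iron chelator, and the other sterile water as vehicle, each for 48 h. Each culture gave 1 droplet-based 3′ single-cell library with unique molecular identifiers (UMIs). Whether both cultures began from the same sort is not stated for each library.

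Mitochondrial DNA is transcribed as long precursors, mostly from the heavy-strand promoter, and tRNAs that lie between the coding genes are cut out to release the mRNAs. The enzyme subunits made from these mRNAs join nuclear-encoded subunits in the inner membrane. mt-Co1, mt-Co2 and mt-Co3 encode the core of cytochrome c oxidase (complex IV), which passes electrons to oxygen and carries heme and copper. mt-Atp6 and mt-Atp8 encode membrane subunits of ATP synthase (complex V), and mt-Cytb encodes cytochrome b, the heme-binding core of complex III. HSC are known for a reliance on glycolysis and for mitochondria whose activity is held low until the cells are activated.

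The sequences shown here are those of the gene ends, where a 3′ library is primed, and of the places where members touch each other. They come from the GENCODE M21 transcripts (build GRCm38, of which mm10, the build in the submitters' processing notes, is the other name). All 6 genes lie on the plus strand of chromosome M as single uninterrupted coding genes. In genome order they are mt-Co1 (chrM:5328-6872), mt-Co2 (chrM:7013-7696), mt-Atp8 (chrM:7766-7969), mt-Atp6 (chrM:7927-8607), mt-Co3 (chrM:8607-9390) and mt-Cytb (chrM:14145-15288). mt-Co1, mt-Co2, mt-Co3 and mt-Cytb are each followed by a tRNA gene. No tRNA separates mt-Atp8, mt-Atp6 and mt-Co3: the 2 ATP synthase genes overlap by 43 bases, and mt-Atp6 shares its last base with mt-Co3.

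The whole of mt-Atp8 is printed 5′ to 3′ because the pair is read from 1 mRNA, with the bases it shares with mt-Atp6 in capitals.
mt-Atp8, chrM:7766-7969: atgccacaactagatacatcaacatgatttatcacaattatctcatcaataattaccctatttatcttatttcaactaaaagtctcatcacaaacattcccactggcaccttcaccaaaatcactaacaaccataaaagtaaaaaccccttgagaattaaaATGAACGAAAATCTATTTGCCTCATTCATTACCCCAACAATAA
The junction of mt-Atp6 and mt-Co3 follows, with the stop codon of the first and the start codon of the second in capitals.
mt-Atp6 to mt-Co3, chrM:8568-8646: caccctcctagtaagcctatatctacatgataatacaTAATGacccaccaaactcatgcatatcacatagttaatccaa
The last 60 bases of the other 4 genes are shown because their mRNAs end there or nearby, with the stop codon, complete or not, in capitals.
mt-Co1, chrM:6813-6872: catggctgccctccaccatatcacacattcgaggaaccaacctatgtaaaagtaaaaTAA
mt-Co2, chrM:7637-7696: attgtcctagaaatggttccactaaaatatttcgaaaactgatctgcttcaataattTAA
mt-Co3, chrM:9331-9390: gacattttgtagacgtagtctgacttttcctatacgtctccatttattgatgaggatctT
mt-Cytb, chrM:15229-15288: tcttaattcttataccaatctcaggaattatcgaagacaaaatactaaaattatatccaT
mt-Co3 (784 bases) and mt-Cytb (1144 bases) stop on a single T, and the stop codon is known to be completed by the poly(A) tail. The other 4 genes have lengths that are multiples of 3 and end on TAA.

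Several of these sequences also exist in nuclear DNA. Of all 91-base windows, the length of the cDNA read, 99.5% of those in mt-Co2, 99.5% in mt-Atp6, 99.9% in mt-Co3 and 33.1% in mt-Co1 occur letter for letter in another GENCODE transcript, against 0% in mt-Atp8 and mt-Cytb. The matching transcripts belong to unprocessed pseudogenes, chiefly Gm28661 for mt-Co2, Gm10925 for mt-Atp6, Gm28437 for mt-Co3 and Gm29216 for mt-Co1, all on chromosome 1. None of them is among the genes of the tables. No label says how reads that match both places were counted, so the values of mt-Co2, mt-Atp6, mt-Co3 and the end of mt-Co1 carry that uncertainty, as do reads in the bases that mt-Atp8 and mt-Atp6 share.

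The tables held 8708 vehicle and 9852 DFO cells, with 260938938 and 284326017 molecules. The median cell had 27805.5 UMIs in the vehicle library and 27114 in the DFO library, and 24 cell barcodes occurred in both libraries. Levels are given in CPM, a gene's molecules scaled to a library total of 1000000. Of 19 HSC markers, 0 were below 1 CPM in either library. Their summed level was 2255 CPM in vehicle and 2373 CPM in DFO. Among the other lineages given here, the megakaryocyte sum differed most between the libraries. The summed level of 12 megakaryocyte markers was 2088 CPM in vehicle and 1091 CPM in DFO, that of 11 erythroid markers 924.1 and 888.2 CPM, and that of 7 neutrophil-monocyte markers 198.8 and 181.2 CPM. Each group is 1 library, so no difference could be tested against replicates and none carries a p-value. The 95% intervals cover counting error only.

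The members were among the most abundant transcripts of these cells. mt-Atp6 ranked 1st of all 14366 genes in both libraries by CPM. Its vehicle level was 10479 CPM (10467 to 10492, exact Poisson interval), and its DFO level 12624 CPM (12611 to 12638). mt-Co3 followed among the members, with 7338 CPM (7328 to 7349) in the vehicle and 8741 CPM (8730 to 8752) in the DFO library. mt-Co2 lay at 5911 CPM (5901 to 5920) and 6193 CPM (6184 to 6202) in the same order of libraries. For mt-Co1 these values were 4176 CPM (4168 to 4184) and 4328 CPM (4320 to 4335), and for mt-Cytb 3644 CPM (3637 to 3651) and 3930 CPM (3923 to 3937). mt-Atp8 was far below the others, with a vehicle level of 100.5 CPM (99.3 to 101.8) and a DFO level of 103.4 CPM (102.2 to 104.6). It shares 1 mRNA with mt-Atp6, which lies on the 3′ side, where this library is primed. The low count of mt-Atp8 is therefore not a measure of how rare its coding sequence was.

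Each UMI counts 1 captured molecule whatever its length, so the main values are not divided by length. Per kilobase of gene the order in both libraries was mt-Atp6, mt-Co3, mt-Co2, mt-Cytb, mt-Co1 and mt-Atp8. The vehicle levels on that scale ran from 15388 CPM per kilobase for mt-Atp6 to 492.8 for mt-Atp8. Together the 6 genes supplied 83.2% of the molecules of all 13 mitochondrially encoded genes in vehicle and 82.6% in DFO. By CPM, where mt-Co1 lay above mt-Cytb, the counting intervals of neighbouring members did not overlap in either library. Neither order has a check across cultures.

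**Figure D1:**
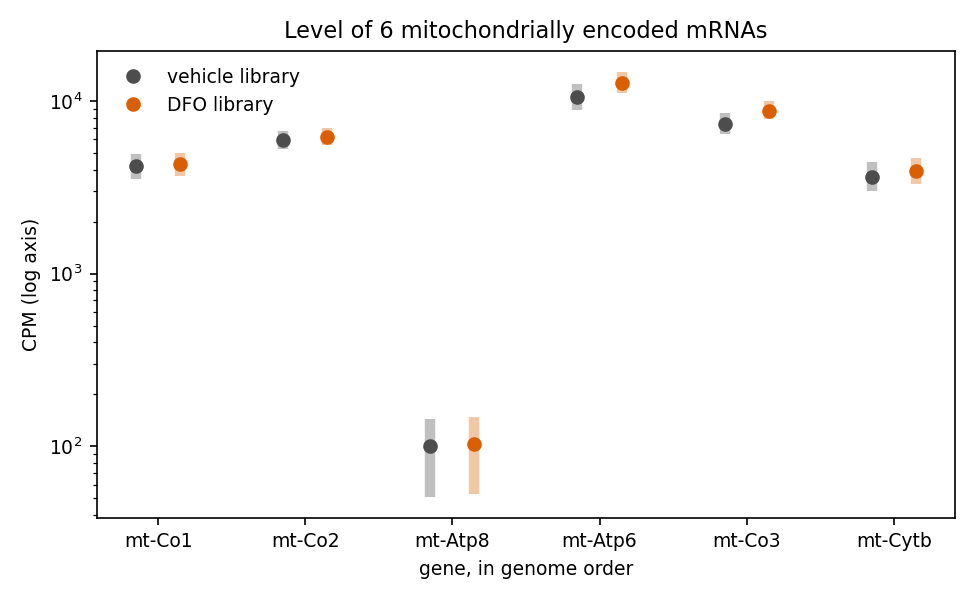
Level of each of the 6 genes (CPM, log axis) in the vehicle library (grey) and the DFO library (orange), in genome order. Points are sums over all cells of a library and pale bars span the 25th to 75th percentile of single cells. mt-Atp6 is highest at 10479 and 12624 CPM, and mt-Atp8 is lowest at 100.5 and 103.4 CPM.

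The main comparison asked how the cultures with and without the chelator differed. The sum of the 6 genes made up 3.16% of vehicle and 3.59% of DFO molecules, a difference of 0.18 on the log2 scale (0.181 to 0.184), or 13.5% more in DFO. The excess was uneven. mt-Atp6 and mt-Co3 were higher in DFO by about the same amount, and mt-Co1, mt-Co2 and mt-Atp8 differed little. All differences are log2((DFO CPM + 1)/(vehicle CPM + 1)), with an exact conditional interval on the counts.

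Among the oxidase genes, mt-Co3 was higher in DFO by 0.25 (0.25 to 0.255), or 19.1%. mt-Co2 was higher by 0.067 (0.064 to 0.07), or 4.78%, and mt-Co1 by 0.051 (0.048 to 0.055), or 3.63%. The oxidase subunits thus did not share a common difference. Of the ATP synthase genes, mt-Atp6 was higher by 0.27 (0.266 to 0.271), or 20.5%, and mt-Atp8 by 0.04 (0.017 to 0.065), or 2.87%, although the pair is read from 1 mRNA. mt-Cytb was higher by 0.11 (0.105 to 0.113), or 7.86%.

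The background was taken from 7476 genes that reached 10 CPM in either library. By any amount, 6 of the 6 members were higher in DFO, against 58.7% of those genes. At a log2 difference of 0.1 or more, 3 members were higher and 0 lower, against 19.1% higher and 13.4% lower among all. mt-Atp6 and mt-Co3 were the 2 members higher by 0.15 or more, against 7.8% of all genes, and also the 2 higher by 0.25 or more, against 1.24%. Ranked by difference among these genes from the highest down, mt-Atp6 was in place 74, mt-Co3 in place 89, mt-Cytb in place 1237, mt-Co2 in place 2273, mt-Co1 in place 2730 and mt-Atp8 in place 3088. No member reached a log2 difference of 1, which 0.0803% of all genes did. The median difference of the 6 genes was 0.088, beside 0.021 over all 7476 genes.

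The complex I genes of the same molecule frame these values. mt-Nd3, which lies next to mt-Co3 with a single tRNA between them, had the highest difference of all genes ranked, 0.55 (0.54 to 0.55), from 727.9 CPM in vehicle to 1063 CPM in DFO. mt-Nd1 was higher by 0.29, mt-Nd4l and mt-Nd4 by 0.19 each and mt-Nd2 by 0.15. mt-Nd5 (0.0033) and mt-Nd6 (-0.063) were not higher by more than 0.1. In genome order the differences were thus 0.29 and 0.15 at mt-Nd1 and mt-Nd2, and 0.067 or less from mt-Co1 to mt-Atp8. They were 0.25 or more from mt-Atp6 to mt-Nd3 and 0.19 at mt-Nd4l and mt-Nd4. After these came 0.0033 at mt-Nd5, -0.063 at mt-Nd6 and 0.11 at mt-Cytb. Genes matched almost fully by another annotated transcript were mt-Co2 (0.067), mt-Nd4l (0.19), mt-Co3 (0.25), mt-Atp6 (0.27) and mt-Nd3 (0.55). Those with no such match were mt-Nd6 (-0.063), mt-Atp8 (0.04), mt-Cytb (0.11) and mt-Nd1 (0.29). The remaining genes were matched in part. Only annotated transcripts were searched, so a gene without a match may still have a nuclear copy. The part of such copies in the differences was not tested.

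**Figure D2:**
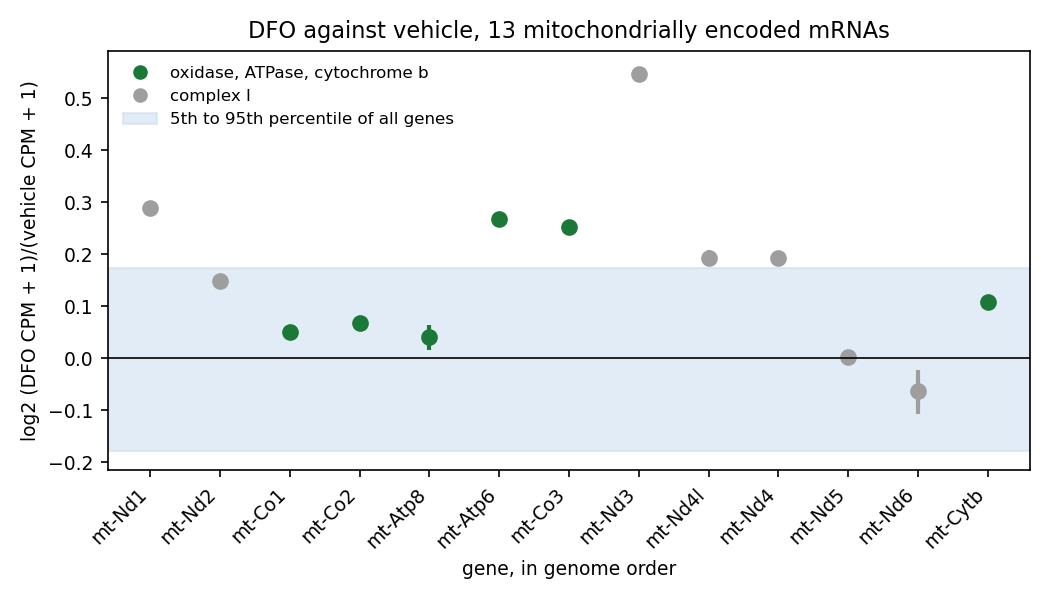
Difference between the DFO and the vehicle library for the 13 mitochondrially encoded genes in genome order. Green points are the 6 genes described here, grey points complex I genes, lines the 95% counting interval, and the blue band the 5th to 95th percentile of 7476 genes (-0.18 to 0.17). mt-Atp6 (0.27) and mt-Co3 (0.25) lie above the band and the other 4 members inside it.

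Ratios between members do not depend on the scaling of a library. For each molecule counted as mt-Atp6, 0.00959 were counted as mt-Atp8 in vehicle (0.00948 to 0.00971) and 0.00819 in DFO (0.0081 to 0.00829). The ratio was thus lower in DFO, with a log2 difference of -0.23 (-0.25 to -0.20). With 1 shared mRNA and priming at its 3′ end, this ratio describes captured molecules and not the amounts of the 2 coding sequences. mt-Co3 and mt-Atp6, which abut without a tRNA, kept nearly the same ratio, 0.7 in vehicle and 0.692 in DFO (log2 difference -0.016). The ratio of mt-Atp6 to mt-Co1 went from 2.51 in vehicle to 2.92 in DFO (0.22), and that of mt-Co3 to mt-Co1 from 1.76 to 2.02 (0.20). mt-Co2 per mt-Co1 was 1.42 and 1.43 (0.016), and mt-Cytb per mt-Co1 was 0.873 and 0.908 (0.058). By size of difference, mt-Atp6 and mt-Co3 stood together, as did mt-Co1, mt-Co2 and mt-Atp8, with mt-Cytb between these groups.

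In single cells the summed share was higher in DFO from the 5th to the 95th percentile, but not at the extremes. The lowest vehicle cell had 0.0947% of its UMIs in the 6 genes, the median cell 3.24% and the highest 13.1%. In DFO the lowest cell had 0.0637%, the median 3.65% and the highest 12%. The libraries overlapped over nearly all of this range. The log2 difference was 0.26 at the 5th percentile, 0.17 at the median and 0.16 at the 95th percentile. No deposited cell had 15% or more of its UMIs in mitochondrially encoded genes, the highest being 14.8% in vehicle and 14.7% in DFO. Cells above 10% numbered 20 in vehicle and 96 in DFO. No label states a filter at this edge, but one placed there would act on the transcripts described here and bound the upper tail of both libraries.

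**Figure D3:**
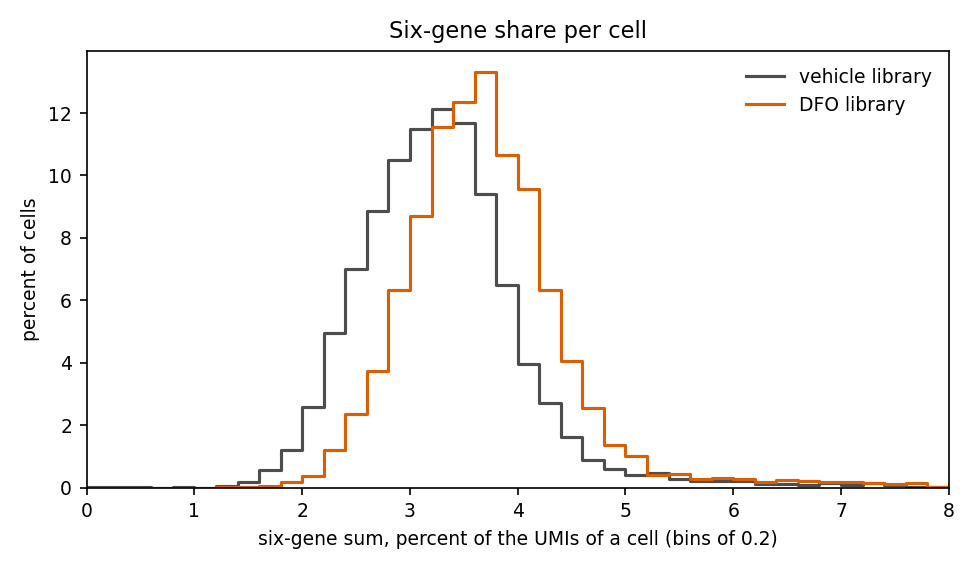
Share of a cell's UMIs that came from the 6 genes, as percent of cells per bin of 0.2 percentage points, in the vehicle library (grey) and the DFO library (orange). The median is 3.24% in vehicle and 3.65% in DFO. The axis stops at 8%, above which lie 0.264% of vehicle and 0.974% of DFO cells.

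Cells were thinned to 10000 UMIs each to compare counts per cell at 1 depth, which left out 351 vehicle and 433 DFO cells. The median thinned vehicle cell then held 107 molecules of mt-Atp6, 74 of mt-Co3, 59 of mt-Co2, 41 of mt-Co1, 36 of mt-Cytb and 1 of mt-Atp8. The median DFO cell held 128, 88, 62, 42, 39 and 1 in the same order. mt-Atp8 had at least 1 molecule in 62.2% of thinned vehicle cells (61.2% to 63.3%, Clopper-Pearson) and 64.2% of thinned DFO cells (63.3% to 65.2%), and in 90.4% and 90.6% of cells before thinning. mt-Co1, mt-Co3 and mt-Atp6 had at least 1 molecule in every deposited cell, and mt-Co2 and mt-Cytb were each missing from 1 cell per library. These transcripts are in every cell type of the culture, so no type lacks them from which the contribution of free RNA could be read.

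The spread between cells differed by member. For mt-Atp6 the variance of the thinned count was 7.96 times its mean in vehicle and 6.66 times in DFO. It was 4.13 and 3.95 times for mt-Co3, 3.78 and 3.69 for mt-Co1, 3.58 and 3.17 for mt-Cytb, and 3.08 and 2.87 for mt-Co2. mt-Atp8, with about 1 molecule per cell, had a variance of 1.09 and 1.04 times its mean, where counting alone gives 1. At equal relative spread this index rises with the mean, so it does not rank members by relative spread. The standard deviation as percent of the mean was 31% and 28.2% for mt-Cytb and 29.8% and 29% for mt-Co1. It was 27.3% and 22.8% for mt-Atp6, 23.4% and 21% for mt-Co3, and 22.7% and 21.4% for mt-Co2. For the sparse mt-Atp8 it was 103.7% and 99.5%.

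Clustering of all cells without mitochondrially encoded genes gave 11 clusters, so that the members did not shape them. Cluster 3 was HSC-like (Sult1a1, Ly6a and Procr among its 10 leading genes), cluster 0 megakaryocyte-like (Pf4 and Treml1), and cluster 10 neutrophil-monocyte-like (Mpo, Ctsg, Elane and Ms4a3). The other 8 stayed unnamed. Among these, cluster 1 was led by Egln3, Mgarp and Ankrd37, cluster 2 by the mitotic genes Fam83d, Nusap1 and Ube2c beside Neurl1b, and cluster 5 by histone genes such as Hist1h1b. Cluster 8 was led by Trnp1, Csrp3 and Aqp1. Cluster 7, led by Slc39a1 and Rpgrip1, held shallow cells, with a median of 6971.5 UMIs.

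The sum of the 6 genes was lowest in the megakaryocyte-like cluster of both libraries, at 2.65% of UMIs in vehicle and 2.98% in DFO. It was highest in shallow cluster 7, at 4.80% and 5.68%. Of the other 10 clusters, the HSC-like cluster was highest in both libraries, at 3.66% in vehicle and 4.05% in DFO. Cluster 1 was next to lowest, at 3.07% and 3.42%. The remaining 7 clusters lay close together, between 3.22% and 3.39% in vehicle and between 3.64% and 3.77% in DFO, and their order was not the same in both libraries.

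**Figure D4:**
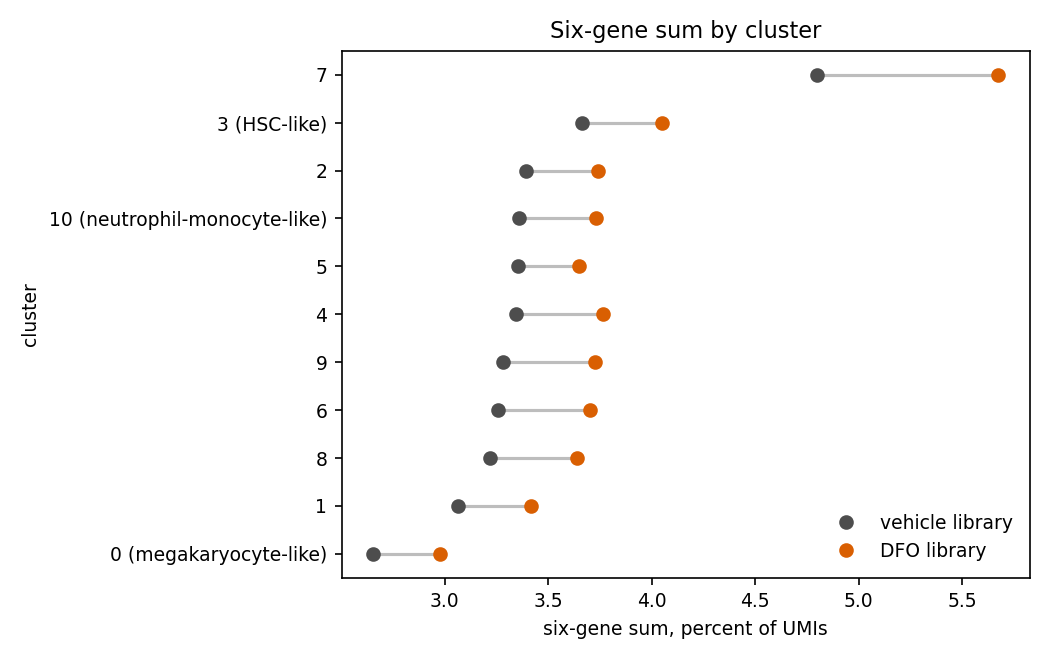
Sum of the 6 genes as percent of all UMIs in each of 11 clusters, ordered by the vehicle value. Grey points are the vehicle library and orange points the DFO library. The megakaryocyte-like cluster is lowest (2.65% and 2.98%), the HSC-like cluster is at 3.66% and 4.05%, and shallow cluster 7 is highest (4.80% and 5.68%).

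Set directly against each other, the HSC-like cluster exceeded the megakaryocyte-like cluster by 0.46 on the log2 scale in vehicle and by 0.44 in DFO for the sum. Every member was higher in the HSC-like cluster in both libraries. The size was greatest for mt-Cytb (0.59 in vehicle and 0.53 in DFO) and mt-Atp6 (0.57 and 0.47), and least for mt-Co2 (0.31 and 0.35). mt-Co1 differed by 0.39 and 0.42, mt-Co3 by 0.42 and 0.44, and mt-Atp8 by 0.47 and 0.38. Complex I genes were mixed. mt-Nd4 (0.43 and 0.37), mt-Nd4l (0.33 and 0.23) and mt-Nd5 (0.20 and 0.19) were higher in the HSC-like cluster too, mt-Nd2 (0.075 and 0.075) and mt-Nd3 (0.052 and 0.026) differed less, mt-Nd1 was lower (-0.14 and -0.12), and mt-Nd6 went opposite ways (-0.16 and 0.05). The clusters also differed in depth. HSC-like cells had medians of 22411 UMIs in vehicle and 21627.5 in DFO, and megakaryocyte-like cells 34688.5 and 32646. With cells of at least 10000 UMIs thinned to that depth the sums differed by 0.47 and 0.44. Thinning leaves a cell's expected share unchanged, so these values do not address the link between depth and share.

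Within clusters the uneven pattern recurred. The sum was higher in DFO in 11 of 11 clusters, from 0.12 in cluster 5 to 0.24 in cluster 7. mt-Atp6 was higher in all 11, by 0.17 to 0.33, and mt-Co3 in all 11, by 0.20 to 0.30. mt-Cytb (0.016 to 0.17) and mt-Co2 (0.024 to 0.15) were also higher in all 11. mt-Co1 was higher in 10, and -0.0014 in cluster 10. Its interval lay above 0 in 9 clusters. mt-Atp8 was higher in 5 and lower in 6 (-0.11 to 0.078), and its interval lay above 0 in the megakaryocyte-like cluster only. The ratio of mt-Atp8 to mt-Atp6 was lower in DFO in 11 of 11 clusters, with log2 differences from -0.38 to -0.15. That of mt-Atp6 to mt-Co1 was higher in 11 of 11 (0.13 to 0.28). The ratio of mt-Co3 to mt-Atp6 had no common direction, being higher in 6 clusters and lower in 5. It ran from -0.087 in the megakaryocyte-like cluster to 0.033.

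**Figure D5:**
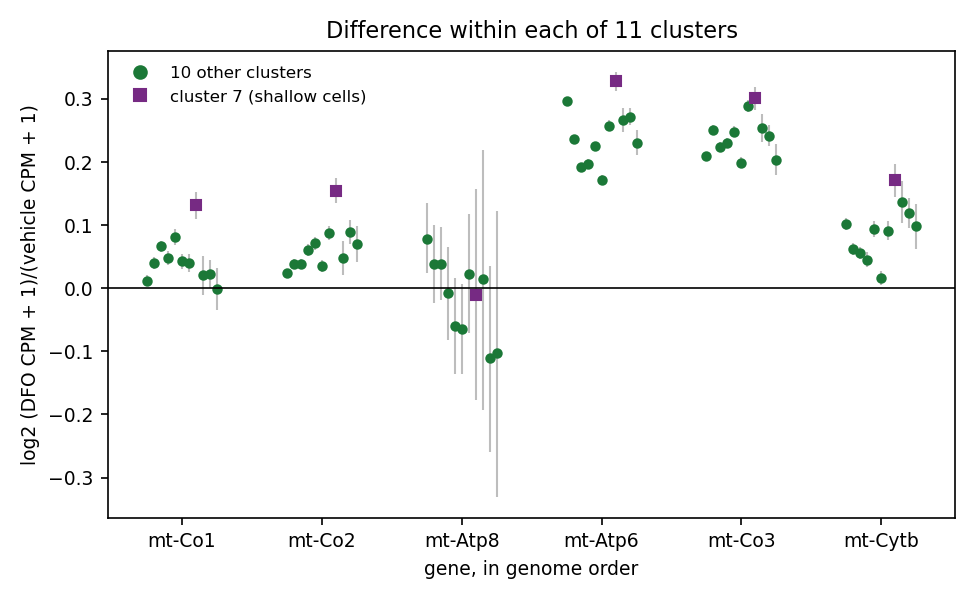
Difference between the DFO and the vehicle library of each of the 6 genes within each of 11 clusters, with the 95% counting interval as a line. The purple square is shallow cluster 7. mt-Atp6 (0.17 to 0.33) and mt-Co3 (0.20 to 0.30) lie above mt-Co1 in every cluster, and mt-Atp8 scatters on both sides of 0 (-0.11 to 0.078).

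The cultures differed in makeup, and the members' level differs between clusters. The megakaryocyte-like cluster, lowest in the members, held 20.4% of vehicle and 15.4% of DFO cells, and the HSC-like cluster 12% of each. Unnamed clusters differed too. mt-Atp6 molecules, which reflect level as well as cell number, were 233434 in vehicle and 453573 in DFO in cluster 4. They were 266318 and 515219 in cluster 5, and 78739 and 30743 in cluster 8. The weighting that follows covers every cluster. With both libraries weighted to the same cluster shares the sum was higher in DFO by 0.16, mt-Atp6 by 0.23, mt-Co3 by 0.24, mt-Cytb by 0.076, mt-Co2 by 0.052, mt-Co1 by 0.049 and mt-Atp8 by 0.013. mt-Cytb was then below 0.1, which left 2 of 6 members above that difference, where 15.5% of all genes were higher by as much.

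The mix of the 6 mRNAs also differed between clusters. The mt-Co1 share of the 6-gene molecules ran from 11.3% in cluster 4 to 15.9% in cluster 7 in vehicle, and from 10.6% to 14.7% in the same clusters in DFO. The ratio of mt-Atp6 to mt-Co1 was 3.14 in cluster 4 and 2.01 in cluster 7 in vehicle, and 3.47 and 2.31 in DFO. Gm26532 and Phtf1os were among the leading genes of cluster 4. The share of mt-Co1 was next highest in clusters 8, 6 and 1, at 14.4%, 14.2% and 14% in vehicle, and 12.9%, 12.8% and 12.9% in DFO. mt-Cytb per mt-Co1 had the same extremes, 1.07 in cluster 4 and 0.679 in cluster 7 in vehicle. By contrast, the ratio of mt-Co3 to mt-Atp6 stayed between 0.648 and 0.761 over the vehicle clusters.

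Cells called G1, S or G2/M from expression scores on thinned counts were compared next. The sum of the 6 genes was 3.55% of UMIs in G1, 3.21% in S and 3.09% in G2/M in vehicle, and 4.06%, 3.64% and 3.51% in DFO. The order was the same in both libraries, and the log2 difference between libraries was similar in each phase (0.20 in G1, 0.18 in S and 0.19 in G2/M). Phase calls alone do not show that a cell cycles, and G1 cells were the shallowest, with medians of 17853.5 UMIs in vehicle and 17090 in DFO.

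Depth moved with the level of these genes in general. Below 5000 UMIs the sum was 4.92% of UMIs in vehicle and 6.37% in DFO. From the next bin on, the vehicle value was lower in each deeper bin, from 4.97% of UMIs in cells of 5000 to below 10000 UMIs to 2.86% in cells of 50000 UMIs or more, and in DFO from 5.58% to 3.35% between the same bins. The DFO value was higher in each of 7 depth bins, by 0.16 to 0.37. Cells from female and male mice, told apart by Xist and Y-linked transcripts, come from different animals of the pool and can be read separately. The sum was higher in DFO by 0.18 in 4751 vehicle and 5251 DFO female cells and by 0.19 in 2767 and 3266 male cells. mt-Atp6 differed by 0.27 in each, mt-Co3 by 0.25 in each, and mt-Co1 by 0.041 in female and 0.063 in male cells. These subsets share their culture and library and are not replicates.

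Across cells, the 5 abundant members varied together. The Pearson correlation of log2(thinned count + 1) for the 10 pairs among them ranged from 0.28 to 0.71 over 8357 vehicle cells and from 0.26 to 0.69 over 9419 DFO cells. It was highest for mt-Atp6 with mt-Cytb (0.71 and 0.69) and for mt-Atp6 with mt-Co3 (0.70 and 0.64). The lowest was mt-Co1 with mt-Cytb (0.28 and 0.26). Pairs with mt-Atp8 lay at or below 0.15, where its counts are too sparse for a reading. All cells of a library share its preparation, and these correlations are descriptions.

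The genes most like the sum of the 6 were sought among 2909 nuclear-encoded genes at 50 CPM or more, by the smaller correlation of both libraries. The highest were H2afy, which encodes a macroH2A histone variant (0.41 in vehicle and 0.41 in DFO), Vim, the intermediate filament protein vimentin (0.33 and 0.33), and Cd34, a surface glycoprotein of progenitors (0.29 and 0.29). Gpx1, a glutathione peroxidase (0.28 and 0.27), and the translation elongation factor Eef1a1 (0.27 and 0.33) completed them. The lowest were Ldha, lactate dehydrogenase A (-0.42 and -0.39), Mt1, a metallothionein (-0.38 and -0.36), and Pf4, platelet factor 4 (-0.40 and -0.33). Aldoa, the glycolytic enzyme aldolase A (-0.38 and -0.32), and Prkar2b, a regulatory subunit of protein kinase A (-0.31 and -0.30), followed.

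Nuclear genes whose products work with the members had list medians between -0.023 and 0.096. Only genes whose average over both libraries reached 5 CPM entered, and 8886 genes did so in all, of which 5144 were higher in DFO, with a median difference of 0.019. The lists' counts of higher genes are to be read against that share. The 12 nuclear subunits of cytochrome c oxidase had a median of 0.031, with 7 higher and 5 lower in DFO. Cox7c (0.11) and Ndufa4 (0.077) were highest, and Cox6a1 (-0.14) and Cox4i1 (-0.15) lowest. Cox4i1, a regulatory oxidase subunit, had 574.2 CPM in the vehicle and 516 CPM in the DFO library. The 9 nuclear complex III genes had a median of 0.028, between Uqcrb (0.13) and Uqcr10 (0.11) at the high end and Uqcr11 (-0.042) and Uqcrh (-0.068) at the low end.

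The ATP synthase list held 15 of 16 genes, with a median of -0.023, 6 higher and 9 lower. Atp5k (0.18) and Atp5l (0.13) were highest, and Atp5h (-0.11) and Atp5g2 (-0.12) lowest. Assembly factors of the oxidase, of which 20 of 21 entered, had a median of 0.043. They ran from Coa7 (0.25) and Cox16 (0.25) to Coa5 (-0.045) and Surf1 (-0.19). Cox10 and Cox15, which make the heme a of the oxidase, differed by 0.024 and -0.013. The 8 assembly factors of complex III and ATP synthase that entered had a median of 0.059, with Uqcc1 (0.10) and Atpaf2 (0.09) highest and Tmem70 (-0.018) and Uqcc3 (-0.09) lowest.

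Factors that transcribe, cut and stabilise mitochondrial RNA numbered 26, with a median of 0.062, 18 higher and 8 lower. Mterf3, a negative regulator of mitochondrial transcription, was highest (0.28, from 11.8 CPM in vehicle to 14.6 CPM in DFO), followed by Fastkd3 (0.19). Hsd17b10, a subunit of mitochondrial RNase P, was lowest (-0.095), next to Ptcd1 (-0.073). Tfam, which packages mitochondrial DNA and starts its transcription, differed by 0.092, and the polymerase Polrmt by -0.031. Slirp and Lrpprc, partners that stabilise mitochondrial mRNA, differed by 0.17 and -0.02. Of these, Cox10, Cox15, Tfam, Polrmt, Slirp and Lrpprc were named for their function after their values had been seen.

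Genes of mitochondrial DNA replication and nucleotide supply had a median of 0.028, with 11 of 13 higher. Ssbp1, the single-strand DNA binding protein of mitochondria (0.22), and the nuclease Dna2 (0.20) were highest, and Primpol (-0.027) and Slc25a36 (-0.053) lowest. The 7 biogenesis regulators that entered had a median of 0.096, from Gabpb1 (0.12) and Esrra (0.11) to Nrf1 (0.03) and Yy1 (-0.051).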

How the data were processed

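Each of the 2 files is a gene by cell table for 1 library. 10x Genomics 3′ v3 libraries were loaded with 20000 cells for each condition, per the labels' protocols. The submitters' processing notes name FastQC 0.11.9, Trim Galore 0.6.5, Cell Ranger 3.0.2 and build mm10, and no source states filters. The values the authors deposited are natural log values: the natural log of 1 plus 27408 times molecules over the cell's total molecules. Undoing this gave whole molecules (within 0.05) for 100% of nonzero values. Genes outside the tables held 0.00734% of vehicle and 0.00684% of DFO molecules.

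Molecules were summed over all deposited cells, scaled to CPM and compared with a pseudocount of 1. No count model or test was run with 1 library per group. At 260938938 and 284326017 molecules counting intervals are narrow, and they leave out variation between cells and cultures. Clustering used 2000 variable genes without mitochondrially encoded, cell cycle and ribosomal protein genes, 30 principal components, 15 neighbours and Leiden resolution 0.5. No doublet caller was run; cells with molecules of both sexes were left out in an alternative. Female cells had 5 or more Xist molecules and none of 4 Y-linked genes, and male cells 2 or more Y-linked and at most 1 Xist. Named were the members, complex I genes, the 2 highest and 2 lowest of each list, the 5 most and least alike genes, and leading genes of clusters. One leading gene and one medium component are not reported here. The members and lists were chosen with earlier results of these data known. Clustering ran in scanpy 1.11.5, leidenalg 0.10.2 and igraph 0.11.9, and intervals in scipy 1.17.1 (Python 3.11.15); scripts were tested on simulated data.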

Additional observations from a re-analysis of the deposited data

How the results depend on the processing

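No member and no summed value changed direction under any alternative run. The sum of the 6 genes (0.18 higher in DFO) became 0.19 as the mean of each cell's own CPM, 0.18 with cells thinned, 0.19 scaled to molecules not mitochondrially encoded, 0.16 scaled by the median ratio, 0.18 in cells of at least 1000 genes whose mitochondrial share was no more than 10%, 0.18 in cells with at least 20000 molecules, 0.16 with equal cluster shares, 0.18 in female and 0.19 in male cells, and 0.18 without cluster 7, a choice made after seeing the data. The count of members at 0.1 or more was 3 or 2 throughout, 2 where mt-Cytb was short of it (median ratio scaling, with 13.3% of all genes higher by as much, and equal cluster shares, with 15.5%) and at a threshold of 0.15. The log2 difference of the mt-Atp8 to mt-Atp6 ratio lay between -0.24 and -0.21. The excess of the HSC-like over the megakaryocyte-like cluster was 0.37 in vehicle and 0.38 in DFO at Leiden resolution 1, and 0.48 and 0.46 scaled to molecules not mitochondrially encoded; the vehicle value was 0.46 with the mitochondrial share filter. No HSC-like cluster was named at resolution 0.25, so it gave no value. Leaving out cells of both sexes or barcodes found in both libraries was also chosen after seeing the data. No paired analysis was possible because each group has 1 library. mt-Atp8, with 260 to 5802 molecules per cluster and library, is the member whose differences depth limits.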

Other observations

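The tails of the 6-gene share differed between the libraries. Cells with less than 2% of UMIs in the 6 genes were 184 in vehicle (2.11%, 1.82% to 2.44%) and 32 in DFO (0.325%, 0.222% to 0.458%). The megakaryocyte-like cluster held 89 and 20 of them. Their median depth was 28820 UMIs in vehicle and 23491.5 in DFO. Cells with 8% or more were 23 in vehicle (0.264%, 0.168% to 0.396%) and 96 in DFO (0.974%, 0.79% to 1.19%), of which 11 and 83 lay in shallow cluster 7.

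In cells below 5000 UMIs (123 in vehicle and 174 in DFO), mt-Atp6 differed by 0.53, mt-Co3 by 0.41 and mt-Cytb by 0.36. There mt-Co2 differed by 0.31, more than over all cells, and mt-Co1 by 0.096. mt-Atp8 differed by -0.25 in these cells, with an interval from -0.70 to 0.20. In cells of 50000 UMIs or more, mt-Atp6 differed by 0.34 and mt-Cytb by 0.19, and in cells of 30000 to below 40000 UMIs by 0.23 and 0.055. For 498 genes averaging at least 300 CPM, the median difference was 0.032 and 23.5% were higher in DFO by 0.1 or more.

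Per-cell ratios were compared with the spread that counting alone gives. The index used grows with the molecules per cell in a pair, so it does not rank pairs of unequal abundance. mt-Atp8 had a median of 1 molecule per thinned cell in each library. On thinned counts the variance of mt-Atp6 against mt-Co1 was 2.99 times the binomial value in vehicle and 2.7 times in DFO, that of mt-Cytb against mt-Co1 2.47 and 2.32 times, that of mt-Co3 against mt-Atp6 1.81 and 1.77 times, and that of mt-Atp8 against mt-Atp6 1.08 and 1.04 times.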
